A study of Mus musculus with 8 samples.

Results

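The heterogeneous nuclear ribonucleoproteins (hnRNPs) and the serine and arginine rich splicing factors (SR proteins) were followed in intestinal epithelial cells (IECs) from mice with and without epithelial DDX5. Members were chosen by name, as the protein-coding genes in both deposited count tables whose symbol begins with Hnrnp or Srsf. This gave 31 members, 20 hnRNP and 11 SR genes, of the 16589 protein-coding genes found in both tables and of 40178 genes of any kind found in either. Of the 31, 30 had enough counts to be tested in every comparison. Srsf12, a repressor of splicing related to Srsf10, had 0 to 4 counts per library and was not tested.

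RNAseq was performed on the colon and the ileum of 2 WT mice, labelled DDX5(+/+) with Vil1Cre(+), and 2 DDX5ΔIEC mice, labelled DDX5(fl/fl) with Vil1Cre(+), all 8 weeks old by their labels. Both genotypes therefore carried the Cre transgene. The Villin1 promoter drives Cre in the gut epithelium, so cells of other lineages in a sample would keep DDX5. IECs were the cells that EDTA washes released from the gut wall, with no sorting step named in the methods for these libraries. RNA was depleted of ribosomal RNA, and the 8 libraries formed 4 groups of 2. Colon libraries held 17385217 and 20393824 counts in WT and 16883951 and 19437275 in DDX5ΔIEC, replicate 1 first as in all pairs of values here. Ileum libraries held 22984283 and 14878989 counts in WT and 11768205 and 11571061 in DDX5ΔIEC. Levels are given as CPM, the counts of a gene for each 1e6 counts of its library, scaled by TMM normalization over the 8 libraries.

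hnRNPs coat nascent transcripts and help to decide which exons are kept, how mRNA is exported and how long it lasts. SR proteins carry an RNA recognition motif and an arginine and serine rich tail, bind enhancers within exons and help the spliceosome to recognise splice sites. Many genes of both families limit their own output by splicing their transcripts into forms that nonsense-mediated decay destroys, and DDX5 is an RNA helicase that unwinds RNA structure and has been found with spliceosomes and with hnRNPs.

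Ddx5 itself, the targeted gene, was at 771 and 706 CPM in WT colon and 367 and 355 CPM in DDX5ΔIEC colon. In the ileum it was at 700.5 and 700.3 CPM in WT and 339.8 and 326 CPM in DDX5ΔIEC. Both knockout libraries lay far below both WT libraries in each tissue. The log2 fold change was −1.04 (SE 0.0888, adjusted p = 0.0866) in the colon and −1.07 (SE 0.176, adjusted p = 0.0270) in the ileum by edgeR's quasi-likelihood test, n = 2 mice per group. The ileum value passed an adjusted p under 0.05, but not without the replicate block (adjusted p = 0.305), with a crossed block (adjusted p = 0.369) or without 3 repeat-like genes (adjusted p = 0.0562). The range was 3.82e-06 to 0.369 over the alternatives with all libraries. With 1 ileum library left out, in fits that also held the colon libraries and had no block, the log2 fold change ran from −1.11 to −1.03. In the colon the value passed by DESeq2 (adjusted p = 7.95e-11) and in 1 fit of all 8 libraries (adjusted p = 0.0401), within a range of 7.95e-11 to 0.139 over the alternatives with all libraries. With 1 colon library left out, in fits that also held the ileum libraries and had no block, the log2 fold change ran from −1.10 to −0.97. Counts cover the whole gene, so the deleted exons of Ddx5 are not seen apart from those that remain. From qRT-PCR and Western blots of IECs, the study reports that DDX5 was efficiently removed, as RNA and as protein, in both small intestine and colon. Ddx17, the closest paralogue of Ddx5, was at 269 and 288 CPM in WT colon and 366 and 376 CPM in DDX5ΔIEC colon, and at 247 and 282 CPM and 431 and 418 CPM in the ileum. Its groups did not overlap in either tissue, and its log2 fold changes of 0.40 and 0.69 had adjusted p-values of 0.271 and 0.103.

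Marker genes served as a check of tissue and cell content. All 9 listed epithelial markers had counts in every library, with a summed level of 13887 and 13478 CPM in WT colon, 15556 and 14049.5 CPM in DDX5ΔIEC colon, 17971 and 17256 CPM in WT ileum and 21162 and 16257 CPM in DDX5ΔIEC ileum, and Krt8, a keratin of simple epithelia, was the most abundant. The 9 enterocyte markers summed to 13456 and 13430.0 CPM in WT ileum and 18854 and 11357 CPM in DDX5ΔIEC ileum, led by the peptidase Anpep, and to 461 and 418 CPM and 563 and 566 CPM in the colon, where Apoa4 was at 0 in WT replicate 2. The 7 colonocyte markers, led in the colon by the carbonic anhydrase Car1, summed to 4385 and 4686 CPM in WT colon and 5082 and 5884 CPM in DDX5ΔIEC colon, against 977 and 945 CPM and 1071 and 816 CPM in the ileum. Car1 alone was at 2033 and 2422 CPM in WT colon. Not all 7 followed the sum. By edgeR at an adjusted p under 0.05, 4 were lower and 2 higher in WT ileum than in WT colon, against 18.3% and 19.5% of genes. In DDX5ΔIEC mice 4 were lower and 1 higher, against 18.3% and 19.4%. The 12 T cell markers, led by the leukocyte gene Ptprc, summed to 59.2 and 43.4 CPM in WT colon, 9.38 and 24.0 CPM in DDX5ΔIEC colon, 117 and 99.8 CPM in WT ileum and 121 and 67.1 CPM in DDX5ΔIEC ileum. Cd2 was at 0 in replicate 1 of DDX5ΔIEC colon and replicate 2 of DDX5ΔIEC ileum. In the colon 0 of the 7 colonocyte markers passed by edgeR, while 3 were higher in DDX5ΔIEC by DESeq2 and 3 at an unadjusted p under 0.05. In the ileum 0 of 6 passed by either tool, with 1 higher and 2 lower at an unadjusted p under 0.05. Epithelial, enterocyte, stromal and cycling markers had 0 passing by edgeR and DESeq2 in both tissues, with 2, 2, 2 and 3 in the colon and 0, 1, 0 and 1 in the ileum at an unadjusted p under 0.05. In the colon 0 of the 10 T cell markers tested passed by edgeR, 1 by DESeq2, and 7 were lower at an unadjusted p under 0.05, and in the ileum 0 passed by either tool and 1 was lower at that unadjusted p. The 9 markers of stroma and endothelium, led by Col3a1 in the colon and Vim in the ileum, summed to at most 18.4 CPM, with Des at 0 in replicate 1 of DDX5ΔIEC colon and Acta2 in replicate 2 of WT ileum. Stem cell markers, 8 genes led in the ileum by Olfm4, summed to 1009 and 968 CPM in WT ileum and 854 and 1142 CPM in DDX5ΔIEC ileum, and, led by Cd44, to 203 and 209 CPM and 178 and 219 CPM in the colon. The 7 goblet cell markers, led by Fcgbp in the colon and Clca1 in the ileum, summed to 46462 and 51758 CPM in WT colon and 27820.5 and 41477 CPM in DDX5ΔIEC colon, and to 28258 and 24321 CPM and 33879 and 29679.5 CPM in the ileum. The 7 Paneth cell markers, led in the ileum by Defa24, summed to 13367 and 9857 CPM in WT ileum and 12390.1 and 14718 CPM in DDX5ΔIEC ileum, and, led by Ang4, to 1914 and 2196 CPM and 413 and 583 CPM in the colon. Most of the WT colon sum was Ang4, at 1312 and 1502 CPM, with 199.6 and 387 CPM in DDX5ΔIEC colon. Whether the colon samples held Paneth cells was not tested, so these colon values are levels of listed genes only. Defa17 was at 0 in replicate 2 of WT colon and replicate 1 of DDX5ΔIEC colon. By edgeR 0 of the stem, goblet and Paneth cell markers passed by genotype in either tissue. DESeq2 called 2 goblet and 2 Paneth cell markers in the colon, all lower in DDX5ΔIEC, and 0 stem cell markers, and 0 of the 3 lists in the ileum. Of the stem, goblet and Paneth cell markers, 1, 2 and 3 were lower in the colon at an unadjusted p under 0.05, and 0, 2 and 1 were higher in the ileum. The part of these lists in the values of the members was not tested. In these bulk samples, fewer cells of a type and less RNA per cell cannot be told apart.

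In WT epithelium the members were well expressed. Per kilobase of exons, their median level over the 4 WT libraries was 27.8 CPM against 3.71 CPM for all 16178 genes tested over the 8 libraries, and 29 of 30 lay above that median. Levels between genes are compared per length only. The highest of the SR genes were Srsf5 and Srsf2 at 65.1 ± 10.8 and 64.7 ± 2.31 CPM per kilobase (SD, n = 4 libraries of 2 mice). Srsf2 stays in the nucleus and binds exonic enhancers, while Srsf5 is one of the SR genes that respond to growth signals. Srsf1, the founding SR protein, stood at 40.2 ± 0.976 CPM per kilobase. Srsf7, which carries a zinc knuckle and helps to export mRNA, and Srsf6 stood at 28.0 ± 2.51 and 27.6 ± 2.33. Srsf7 and Srsf6 overlapped in their libraries, as did Srsf5 and Srsf2. Srsf3, the smallest SR protein, was at 24.5, and Srsf11, Srsf9, Srsf10 and Srsf4 at 12.3 down to 10.3 CPM per kilobase.

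Among the hnRNPs, Hnrnpab, an RNA-binding protein of the A/B kind, was highest of all members at 84.5 ± 1.68 CPM per kilobase (SD, n = 4). Its lowest WT library, at 82.9, lay above the highest library of Srsf5, at 77.7. Hnrnpk, which binds cytidine-rich RNA through KH domains, reached 59.1 ± 4.63, and Hnrnpf, which binds runs of guanine, 51.4 ± 2.61 CPM per kilobase. Hnrnpa2b1 and Hnrnpa1, abundant proteins that package transcripts and repress exons, reached 49.0 ± 5.11 and 43.2 ± 3.85. The libraries of Hnrnpk and Hnrnpf overlapped, and those of Hnrnpa2b1 and Hnrnpa1 overlapped by a narrow margin. At the other end stood Hnrnpd at 7.73 ± 0.401, Hnrnph3 at 3.89 ± 0.0535 and Hnrnpr at 3.04 ± 0.320 CPM per kilobase, where Hnrnpr has an exon length of 22199 bases, the longest of the members. The order rests on the length. Without it, Hnrnpu would rank 1 and Hnrnpab 5.

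**Figure D1:**
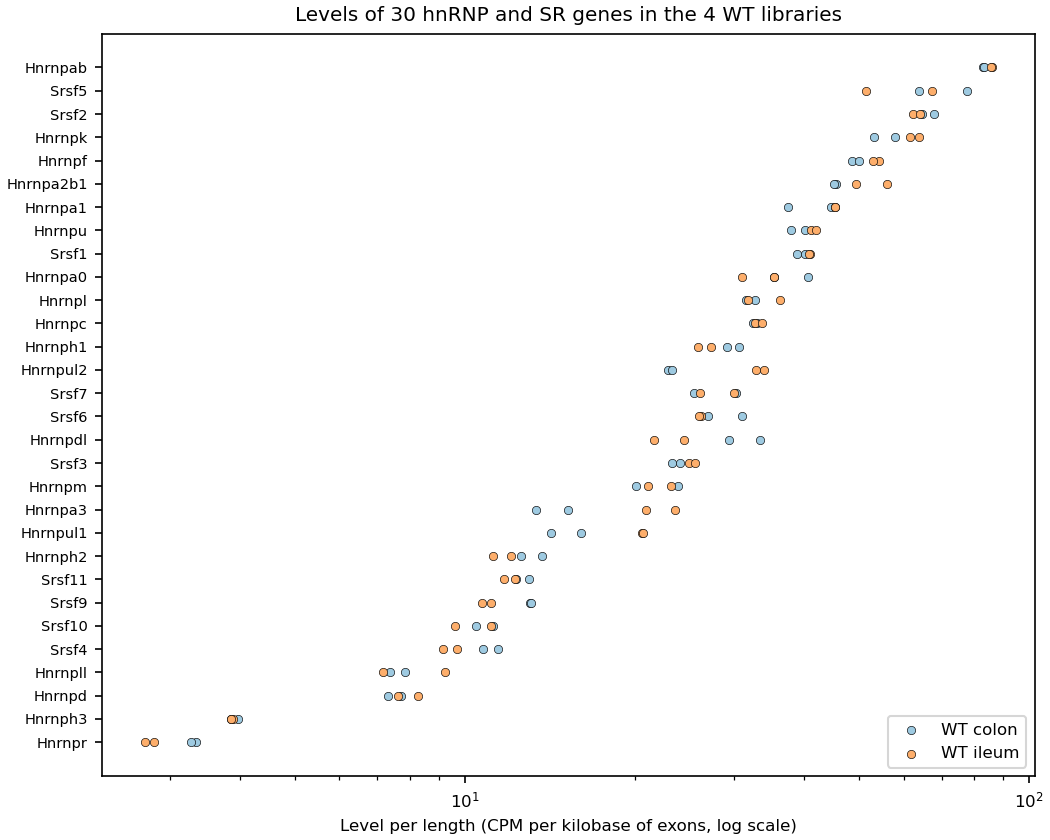
Levels of the 30 tested hnRNP and SR genes in each of the 4 WT libraries, as CPM per kilobase of exons on a log axis, with colon libraries in blue and ileum libraries in orange. Genes are ordered by their mean, from Hnrnpab at 84.5 to Hnrnpr at 3.04.

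Many members have annotated transcripts that are not expected to yield the full protein. In GENCODE vM21, on the GRCm38 build, 19 of 31 members have at least 1 transcript annotated as a target of nonsense-mediated decay, 9 of 11 SR genes and 10 of 20 hnRNP genes, and 22 of 31 have a transcript with a retained intron. The share of all genes with such transcripts was not counted, so these counts do not set the members apart from other genes. The tables give 1 count per gene, so transcripts of a member that code for protein and those that decay were counted together. Members lie on 16 chromosomes.

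The question in each tissue was whether the members differ between DDX5ΔIEC and WT epithelium. In the colon most values lay near 0. Members summed to 4547 and 4352 CPM in WT and 4414 and 4152 CPM in DDX5ΔIEC colon. The median log2 fold change was −0.07 over the 30 members, against −0.000422 over all 15362 genes tested, with −0.13 for the 20 hnRNPs and −0.04 for the 10 SR genes. The range ran from −0.44 for Hnrnpd to 0.28 for Srsf7. By edgeR, 0 of 30 members passed an adjusted p under 0.05, as did 0% of all genes, and by DESeq2 0 of 30 members, against 0.926% of 12960 genes. At an unadjusted p under 0.05 the counts were 5 of 30 members and 12% of genes. Those 5 were Hnrnpd, Hnrnpdl, Hnrnpll and Hnrnpul2 below WT and Hnrnpf above it. The study's own criterion asks for a log2 fold change of 0.5 or more in size and an unadjusted p under 0.05, both by DESeq2. Applied here to the values of edgeR, it was met by 0 of 30 members that were lower and by 0 that were higher, against 3.67% and 3.04% of genes, and by 1, Hnrnpd, without replicate 1 of DDX5ΔIEC colon. Both DDX5ΔIEC libraries lay below both WT libraries for 11 of 30 members, against 20.7% of genes, and above both for 6, against 23.8%.

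The same was asked in the ileum. Members summed to 4634 and 4616 CPM in WT and 4045 and 4463 CPM in DDX5ΔIEC ileum. Their median log2 fold change was −0.17, against −0.00457 over 14068 genes, with −0.21 for the hnRNPs. The SR median was −0.00249 and ran over the alternatives from −0.04 with no filter on low counts to 0.00536 without 3 repeat-like genes, with 0.00390 under RLE normalization and −0.02 by DESeq2. edgeR called 0 of 30 members at an adjusted p under 0.05, against 0.697% of genes, and DESeq2 called 0 of 30, against 0.275% of 10924 genes. At an unadjusted p under 0.05 stood 6 members, Hnrnpd, Hnrnpdl, Hnrnph1, Hnrnpll, Hnrnpul2 and Srsf11, all lower, against 12.3% of genes. The study's criterion was met by 2 members that were lower, Hnrnpd and Hnrnpdl, against 3.48% of genes, and by 0 that were higher, against 3.87%. Both DDX5ΔIEC libraries lay below both WT libraries for 13 of 30 members, against 20.8% of genes, and above both for 5, against 18.7%. The median of the members was −0.04 without replicate 1 of DDX5ΔIEC ileum, nearer 0 than the colon median of −0.07, and in the colon it was −0.15 without replicate 1 of DDX5ΔIEC, −0.11 without replicate 2 of WT, −0.03 without replicate 2 of DDX5ΔIEC and −0.02 without replicate 1 of WT. For the hnRNPs the ileum median was −0.02 without replicate 1 and −0.40 without replicate 2 of DDX5ΔIEC, and the colon median was −0.07 without replicate 2 of DDX5ΔIEC and −0.05 without replicate 1 of WT. For the SR genes the ileum median ran from −0.07 without replicate 1 of DDX5ΔIEC to −0.02 without replicate 2 of WT. In the colon it was −0.07 without replicate 1 and 0.15 without replicate 2 of DDX5ΔIEC, and 0.02 without replicate 1 and 0.00457 without replicate 2 of WT.

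**Figure D2:**
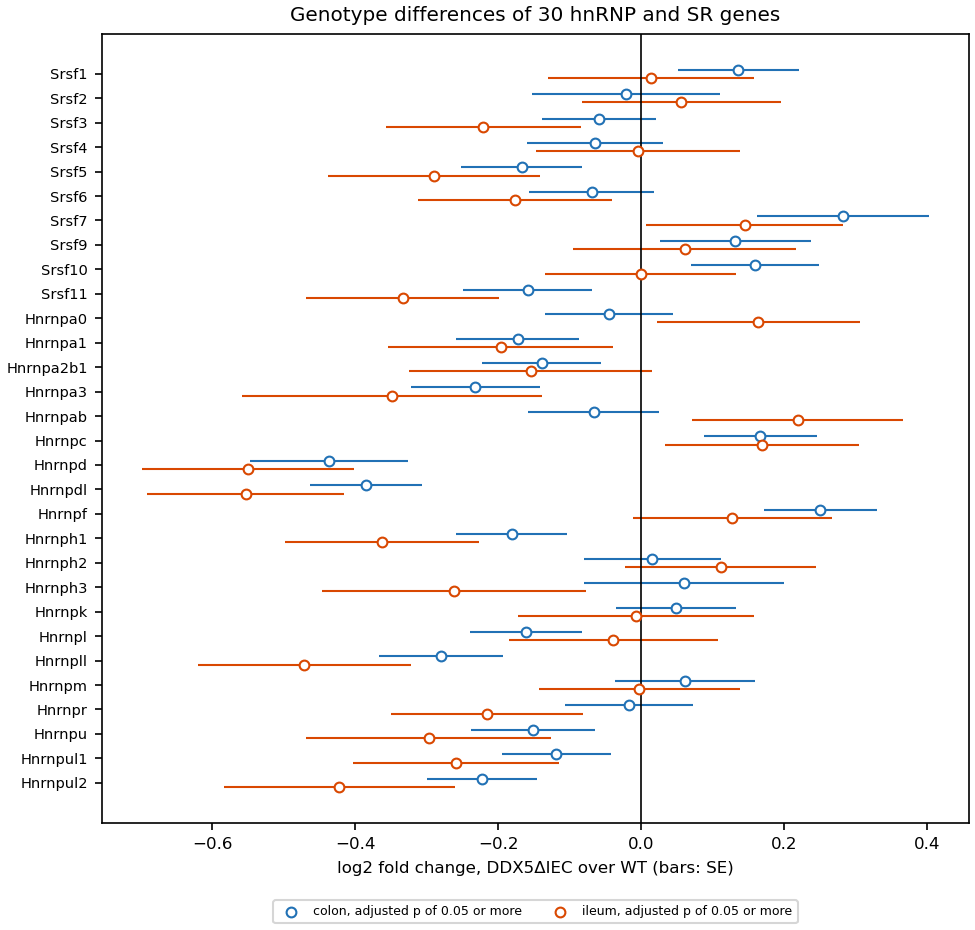
Log2 fold change of each tested member, DDX5ΔIEC over WT, by tissue, with bars of 1 SE and n = 2 mice per group. Values run from −0.55 for Hnrnpdl in the ileum to 0.28 for Srsf7 in the colon, and none passed an adjusted p under 0.05.

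Hnrnpd and Hnrnpdl had the lowest log2 fold changes of the members in both tissues with all libraries, but not with each library left out. In the colon Hnrnpa3 was lowest without replicate 2 of DDX5ΔIEC, at −0.36, and came below Hnrnpdl without replicate 1 of WT, at −0.31. In the ileum Hnrnpa3 was lowest without replicate 2 of DDX5ΔIEC, at −0.94, where Hnrnpul2, at −0.67, also came below Hnrnpdl. Hnrnpll was lowest in the ileum without replicate 1 of WT, at −0.66, and came below Hnrnpd without replicate 1 of DDX5ΔIEC, at −0.51. Hnrnpd encodes AUF1, which binds AU-rich elements and speeds the decay of the mRNAs that carry them. It was at 56.7 and 53.9 CPM in WT colon and 45.9 and 36.9 CPM in DDX5ΔIEC colon, and at 60.9 and 56.0 CPM in WT ileum and 36.1 and 44.0 CPM in DDX5ΔIEC ileum. The 2 genotypes did not overlap in either tissue. Its log2 fold change was −0.44 (SE 0.110, adjusted p = 0.313) in the colon and −0.55 (SE 0.148, adjusted p = 0.150) in the ileum. The colon value was −0.27 without replicate 2 of DDX5ΔIEC and −0.59 without replicate 1 of DDX5ΔIEC. Hnrnpdl, its paralogue, was at 161 and 141 CPM in WT colon and 119.6 and 113 CPM in DDX5ΔIEC colon, and at 118 and 104 CPM and 75.4 and 75.4 CPM in the ileum. Again every DDX5ΔIEC library lay below every WT library of its tissue, with log2 fold changes of −0.39 (SE 0.0784, adjusted p = 0.266) and −0.55 (SE 0.138, adjusted p = 0.120) in the colon and the ileum. None of these 4 values passed the adjusted threshold. At the study's criterion the ileum count of 2 became 1, Hnrnpll, without replicate 1 of WT, and 4, with Hnrnpa3 and Hnrnpul2 added, without replicate 2 of DDX5ΔIEC. Without replicate 1 of DDX5ΔIEC it was 2, Hnrnpdl and Hnrnpll.

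These paralogues are also neighbours. Hnrnpd (ENSMUSG00000000568.15) lies at chr5:99955935-99978938 and Hnrnpdl (ENSMUSG00000029328.15) at chr5:100033577-100039664, both on the minus strand, with 54638 bases and 1 annotated gene between them. Hnrnpd is overlapped on the opposite strand by the antisense gene Gm17092. Whether the counting used strand is not given in the sources used here, so reads from the overlapped bases cannot be told apart.

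Of the other members, those named next for groups that did not overlap in both tissues were chosen after their values were seen. Both DDX5ΔIEC libraries lay below both WT libraries in colon and ileum for 8 members, Hnrnpd, Hnrnpdl, Hnrnph1, Hnrnpll, Hnrnpu, Hnrnpul2, Srsf3 and Srsf11, or 8 of 30 against 7.78% of the 13567 genes tested in both tissues. Hnrnpll, a paralogue of Hnrnpl known for the splicing of Ptprc in lymphocytes, was at 91.6 and 86.1 CPM in WT colon and 77.1 and 70.4 CPM in DDX5ΔIEC colon, and at 83.6 and 108 CPM and 69.3 and 67.3 CPM in the ileum. T cell markers also had lower sums in DDX5ΔIEC colon, and their part in this value was not tested. Hnrnpu, which ties RNA to the nuclear scaffold, was at 465 and 439 CPM and 410.1 and 409 CPM in the colon of WT and DDX5ΔIEC, and at 476 and 487 CPM and 356 and 429 CPM in the ileum. Srsf11 was at 104 and 109.8 CPM and 99.8 and 93.3 CPM in the colon, and at 99.1 and 104 CPM and 79.4 and 81.4 CPM in the ileum. In Srsf3 the gap in the colon was narrow, with WT at 184 and 191 CPM and DDX5ΔIEC at 182 and 181 CPM, and in the ileum WT stood at 198 and 202 CPM and DDX5ΔIEC at 169.7 and 172 CPM. Log2 fold changes of these 4 genes ran from −0.47 to −0.06 over the 2 tissues, and none passed the test. With 1 library left out all stayed below 0. That of Hnrnpll in the ileum was −0.29 without replicate 2 of WT, that of Hnrnpu −0.17 without replicate 1 of DDX5ΔIEC ileum, that of Srsf11 in the colon −0.10 without replicate 2 of DDX5ΔIEC, and that of Srsf3 in the colon −0.03 without replicate 2 of WT.

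The opposite side held 3 members, Hnrnpc, Hnrnpf and Srsf7, whose DDX5ΔIEC libraries lay above both WT libraries in each tissue, or 3 of 30 against 7.68% of genes. Hnrnpc, which binds uridine tracts and keeps cryptic exons out, was at 143 and 140.0 CPM in WT colon and 156 and 163 CPM in DDX5ΔIEC colon, and at 141 and 145 CPM and 155 and 166 CPM in the ileum. For Hnrnpf the colon values were 148 and 152 CPM in WT and 180.4 and 179 CPM in DDX5ΔIEC, and the ileum values 165 and 161 CPM and 191 and 166 CPM, where the nearest libraries of the genotypes all but met. Srsf7 stood at 58.0 and 68.8 CPM and 80.2 and 74.8 CPM in the colon, and at 59.5 and 68.4 CPM and 70.9 and 69.8 CPM in the ileum. Their log2 fold changes were between 0.13 and 0.28, with adjusted p-values from 0.349 to 0.785. In the ileum that of Hnrnpf was 0.01 without replicate 1 of DDX5ΔIEC and 0.25 without replicate 2, and that of Srsf7 was 0.04 without replicate 1 of WT and 0.24 without replicate 2, and in the colon that of Srsf7 was 0.17 without replicate 1 of WT.

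The members with the highest levels per length showed both patterns. Hnrnpk was at 374 and 344 CPM in WT colon, 386 and 362 CPM in DDX5ΔIEC colon, 412 and 398 CPM in WT ileum and 409 and 395 CPM in DDX5ΔIEC ileum, so that its genotypes overlapped in both tissues. Srsf2 overlapped likewise, at 191 and 201 CPM in WT colon, 222 and 170.2 CPM in DDX5ΔIEC colon, 184 and 189 CPM in WT ileum and 204 and 184 CPM in DDX5ΔIEC ileum. Hnrnpab overlapped in the colon, at 231 and 231 CPM in WT and 237 and 209 CPM in DDX5ΔIEC, and in the ileum its DDX5ΔIEC libraries, at 276 and 279.6 CPM, lay above the WT libraries, at 239.5 and 239 CPM. Srsf1 did the reverse, with DDX5ΔIEC at 254 and 245 CPM above WT at 221 and 229 CPM in the colon, and 243 and 228 CPM around WT at 234 and 233 CPM in the ileum. Hnrnpa1, Hnrnpa2b1, Srsf5 and Srsf6 had log2 fold changes from −0.29 to −0.07 over both tissues, with adjusted p-values of 0.471 or more. Without replicate 1 of DDX5ΔIEC ileum the ileum values turned to 0.06 for Hnrnpa1 and 0.13 for Hnrnpa2b1, and without replicate 2 they were −0.45 and −0.44. Srsf6 in the colon ran from −0.25 without replicate 1 of DDX5ΔIEC to 0.12 without replicate 2. For Srsf5 the colon value was −0.02 without replicate 1 of WT and −0.30 without replicate 2, and the ileum value −0.10 and −0.48 likewise. Hnrnpa1 in the colon was −0.04 without replicate 1 of WT and −0.29 without replicate 2. Genotypes did not overlap for Hnrnpa1 and Hnrnpa2b1 in the colon or for Srsf5 and Srsf6 in the ileum, where DDX5ΔIEC was lower each time. For Hnrnpa1 the nearest libraries all but met, with WT at 140.5 and 118.05 CPM and DDX5ΔIEC at 117.83 and 112.4 CPM. In all, genotypes overlapped for 13 of 30 members in the colon, against 55.4% of genes, and for 12 in the ileum, against 60.5%.

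**Figure D3:**
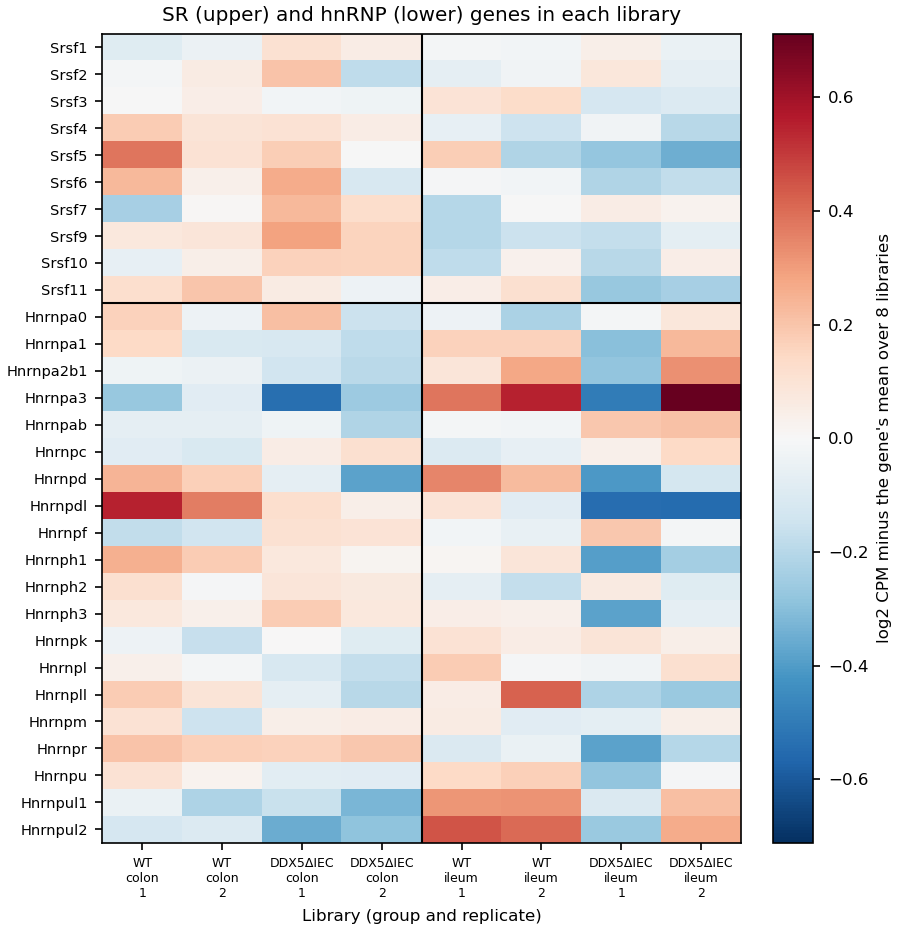
Level of every tested member in each of the 8 libraries, relative to that member's mean over the 8 libraries on a log2 scale. The libraries of DDX5ΔIEC ileum stand furthest apart for Hnrnpa3, at 61.7 CPM in replicate 1 and 142.5 CPM in replicate 2.

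The 2 libraries of DDX5ΔIEC ileum differed more from each other than those of other groups. The median absolute log2 ratio of replicate 1 over replicate 2 across the members was 0.143 in DDX5ΔIEC ileum, 0.0751 in DDX5ΔIEC colon, 0.0791 in WT colon and 0.0606 in WT ileum, against 0.285, 0.213, 0.142 and 0.186 over all genes. The widest gap was in Hnrnpa3, at 61.7 and 143 CPM, a log2 ratio of −1.21. Of the 30 members, 10 were higher in replicate 1 in DDX5ΔIEC ileum, against 48.2% of genes, and 25 in DDX5ΔIEC colon, against 50.02% of genes. In WT these were 16 in the ileum, against 50.1%, and 19 in the colon, against 51.7%. Cycling markers, 17 genes led by the proliferation gene Mki67, summed to 1067 and 1335 CPM in DDX5ΔIEC ileum against 1348 and 1301 CPM in WT ileum, and enterocyte markers were highest in replicate 1 of DDX5ΔIEC ileum. In the colon the cycling markers summed to 1005 and 1106 CPM in WT and 813 and 1110.4 CPM in DDX5ΔIEC, again lowest in replicate 1 of DDX5ΔIEC. Replicate 2 of DDX5ΔIEC ileum had 19.5% of its counts (95% Wilson interval 19.47% to 19.51%, for counting error only) on the repeat-like genes Gm21738, Gm10801 and Gm10800, while replicate 1 had 0.226% (0.223% to 0.229%). WT ileum had 4.04% (4.04% to 4.05%) and 3.93% (3.92% to 3.94%), between the 2 DDX5ΔIEC values, and colon libraries had at most 0.261% (0.259% to 0.263%). The part of these differences in the genotype values of the members was not tested, beyond the fits without those 3 genes or without each library.

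Whether the knockout acted differently in the 2 tissues was tested as an interaction. edgeR called 0 of 30 members at an adjusted p under 0.05, against 0.00618% of 16178 genes. At an unadjusted p under 0.05 the count was also 0 of 30, against 6.37% of genes, and DESeq2 called 0 of 30, against 0.228% of 14472 genes. The median difference, ileum minus colon, was −0.13 on the log2 scale over the members and −0.01 over all genes. The median of the members was −0.02 without replicate 1 of DDX5ΔIEC colon, −0.03 without replicate 1 of DDX5ΔIEC ileum and −0.08 without replicate 2 of WT in either tissue. For Hnrnpd and Hnrnpdl it was −0.13 (SE 0.209) and −0.18 (SE 0.131). That of Hnrnpd turned to 0.17 without replicate 1 of DDX5ΔIEC in either tissue, and was −0.40 without replicate 2 of DDX5ΔIEC ileum and −0.41 without replicate 2 of DDX5ΔIEC colon. Either tissue left out takes that mouse out of the comparison, so the 2 fits of each replicate number rest on the same mice.

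The ileum was compared with the colon within each genotype, as a contrast to the genotypes. Between WT ileum and WT colon, compared within mice, 4 of 30 members passed an adjusted p under 0.05, against 37.7% of genes. Of these, 3 were higher in the ileum, Hnrnpa3, Hnrnpul1 and Hnrnpul2, against 19.5% of genes, and 1 was lower, Hnrnpdl, against 18.3%. DESeq2 called the same members, 3 higher, against 13.7% of 16809 genes, and 1 lower, against 11%. There were 3 higher and 3 lower at an unadjusted p under 0.05, against 23.3% of genes each way. Hnrnpa3, which carries RNA to its place in the cytoplasm, was at 72.2 and 82.2 CPM in WT colon and 113 and 127 CPM in WT ileum. Hnrnpul1, a paralogue of Hnrnpu with a part in DNA repair, was at 139 and 123 CPM in WT colon and 178 and 179 CPM in WT ileum. Hnrnpul2, a further paralogue, was at 131 and 133 CPM and 194 and 188 CPM. For all 3 genes both ileum libraries lay above both colon libraries. The log2 ratios were 0.64 (SE 0.197, adjusted p = 0.0413) for Hnrnpa3, 0.45 (SE 0.136, adjusted p = 0.0390) for Hnrnpul1 and 0.53 (SE 0.129, adjusted p = 0.0174) for Hnrnpul2.

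Hnrnpdl was the member that was lower in WT ileum, at 118 and 104 CPM against 161 and 141 CPM in the colon, a log2 ratio of −0.45 (SE 0.0920, adjusted p = 0.00907). Its tissue groups did not overlap. Hnrnpd, next to it, overlapped between tissues, with a log2 ratio of 0.08 (SE 0.145, adjusted p = 0.707). That ratio was 0.047 without replicate 1 of WT colon and 0.049 without replicate 1 of WT ileum. Over all members the median log2 ratio was 0.02, against −0.02 over all genes, and it was −0.03 with no filter on low counts, without replicate 2 of WT ileum or without replicate 2 of WT colon. Leaving out replicate 1 or 2 of WT colon or of WT ileum, which leaves 1 WT mouse with both tissues, took the count of 4 to 0, and leaving out any 1 of the DDX5ΔIEC libraries took it to 6, adding Hnrnpr and Srsf5. The call of Hnrnpa3 ended without the mouse as a block (adjusted p = 0.158), within a range of 0.000247 to 0.158 over the alternatives. In Hnrnpa3 an annotated microRNA gene lies within the gene on the same strand, and Hnrnpul2 is overlapped on its strand by another annotated coding gene, and reads from those bases cannot be told apart in the tables.

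Promoters are shown for Hnrnpa3 and Hnrnpul1, members that were higher together in WT ileum. RefSeq start sites on GRCm38.p6 matched 29 of 31 members, with Hnrnpll and Hnrnpul2 unmatched, and gave 41 promoters. Each line gives the 250 bases before the start, 5′ to 3′ on the gene's strand. Capitals mark the GC box GGGCGG and the CCAAT box CCAAT on either strand, and matches of 1 motif can overlap each other. The first lies at chr2:75659009-75659258 on the plus strand and the second at chr7:25754760-25755009 on the minus strand.
Hnrnpa3: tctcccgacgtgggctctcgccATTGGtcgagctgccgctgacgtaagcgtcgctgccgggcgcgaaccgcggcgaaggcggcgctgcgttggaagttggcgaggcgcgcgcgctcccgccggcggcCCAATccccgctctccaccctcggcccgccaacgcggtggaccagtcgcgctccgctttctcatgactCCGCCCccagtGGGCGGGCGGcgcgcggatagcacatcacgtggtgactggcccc
Hnrnpul1: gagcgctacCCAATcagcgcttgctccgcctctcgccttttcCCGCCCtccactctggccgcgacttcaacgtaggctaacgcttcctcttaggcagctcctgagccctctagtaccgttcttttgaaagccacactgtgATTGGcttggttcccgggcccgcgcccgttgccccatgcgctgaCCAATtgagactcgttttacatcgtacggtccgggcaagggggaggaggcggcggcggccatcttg
The Hnrnpa3 window held 3 matches of the GC box and 2 of the CCAAT box, and that of Hnrnpul1 held 1 and 3. Promoters of the family as a whole were rich in G and C, with a median of 68% over 41 member promoters against 52.4% over 32851 promoters of all genes. A GC box was found in 33 of the 41, against 32.7% of all promoters, and a CCAAT box in 20, against 33.8%. The TATA box TATAAA was found in 3 of 41, against 12.4%. Other motifs searched on both strands were the ETS core CCGGAAG in 9 of 41, against 6.91%, the E box CACGTG in 3, against 6.02%, the NRF1 core in 1, against 0.782%, and the CRE TGACGTCA in 0, against 1.55%. A match is a description of the letters only.

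In DDX5ΔIEC mice, 4 of 30 members differed between ileum and colon at an adjusted p under 0.05, against 37.8% of genes. All 4 were lower in the ileum, Hnrnpdl, Hnrnph1, Hnrnpr and Srsf5, against 18.3% of genes in that direction, and 0 were higher by edgeR, against 19.4%. At an unadjusted p under 0.05, 3 were higher, against 23.6% of genes, and 6 lower, against 24%. DESeq2 called 1 of 30 higher, Hnrnpab, against 13.9% of 17588 genes, and 3 lower, against 10.1%. Hnrnpab passed by DESeq2 (adjusted p = 0.0470) and by edgeR with RLE normalization (adjusted p = 0.0418), within a range of 0.0418 to 0.401 over the alternatives. With no filter on low counts edgeR called Hnrnpa3 higher, at a log2 ratio of 0.43 (adjusted p = 0.0182), and the count of 4 became 6 with Srsf9 also added. Srsf9 took the place of Srsf5 without the mouse as a block. Hnrnph1 and Hnrnpr fall outside the rule for naming and were chosen after their values were seen. Hnrnpdl was at 119.6 and 113 CPM in DDX5ΔIEC colon and 75.4 and 75.4 CPM in DDX5ΔIEC ileum, a log2 ratio of −0.63 (SE 0.0937, adjusted p = 0.00239). Hnrnpr, a relative of the mRNA transport factor Syncrip, was at 72.4 and 73.9 CPM and 49.6 and 56.1 CPM, with a log2 ratio of −0.47 (SE 0.0978, adjusted p = 0.00942). Hnrnph1, a guanine-run binder like Hnrnpf, was at 158 and 152 CPM and 115 and 127 CPM, with a log2 ratio of −0.36 (SE 0.107, adjusted p = 0.0357). Srsf5 was at 268 and 237 CPM and 196 and 187 CPM, with a log2 ratio of −0.40 (SE 0.105, adjusted p = 0.0237). In each of these genes both ileum libraries lay below both colon libraries.

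Hnrnpdl also passed in WT mice, and the other 3 genes leaned the same way there without passing. In WT mice Hnrnpr had a log2 ratio of −0.26, Hnrnph1 −0.17, which was −0.10 without replicate 1 of WT colon or of WT ileum, and Srsf5 −0.26, and the interaction called 0 of 30 members, as given above with its other counts. The call of Srsf5 ended without the mouse as a block (adjusted p = 0.0887, range 0.00968 to 0.0887) and that of Hnrnph1 by DESeq2 (adjusted p = 0.0740, range 0.0155 to 0.0740) and with RLE normalization (adjusted p = 0.0505). The count of 4 became 2, Hnrnpdl and Hnrnpr, without any 1 of the 4 WT libraries. It became 8 without replicate 1 of DDX5ΔIEC ileum and 7 without replicate 1 of DDX5ΔIEC colon, in both cases without Hnrnph1 and Srsf5, and 5, adding Srsf6, without replicate 2 of either DDX5ΔIEC tissue. Without replicate 1 of DDX5ΔIEC ileum, Hnrnpa3 had a log2 ratio of 0.96, Hnrnpul1 of 0.53 and Hnrnpul2 of 0.54. Without replicate 2 of DDX5ΔIEC ileum they were 0.06, 0.07 and 0.11, and without replicate 2 of DDX5ΔIEC colon 0.05, 0.06 and 0.10. Leaving out either tissue of a mouse takes that mouse out of the ratio, so the last 2 fits rest on the same DDX5ΔIEC mouse. With all 8 libraries the same genes had log2 ratios of 0.52, 0.30 and 0.32, which did not pass by edgeR with its filter on low counts. Of the 10 SR genes, 10 had a log2 ratio below 0 in DDX5ΔIEC mice, with a median of −0.21, and 7 in WT mice, with a median of −0.07. Over all genes 8506 of 16178 were below 0 in DDX5ΔIEC mice, with a median of −0.04, and 8325 in WT mice, with a median of −0.02. The count of 7 SR genes in WT mice became 8 with no filter on low counts and without replicate 1 of WT colon or of WT ileum. In DDX5ΔIEC mice Srsf2 turned above 0 under RLE normalization, with DESeq2, with a mean of at least 10 counts and without the 3 repeat-like genes, and to 0.10 without replicate 1 of DDX5ΔIEC ileum or of DDX5ΔIEC colon. In those 2 fits the SR median was −0.12. In WT mice it was −0.12 with no filter on low counts.

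**Figure D4:**
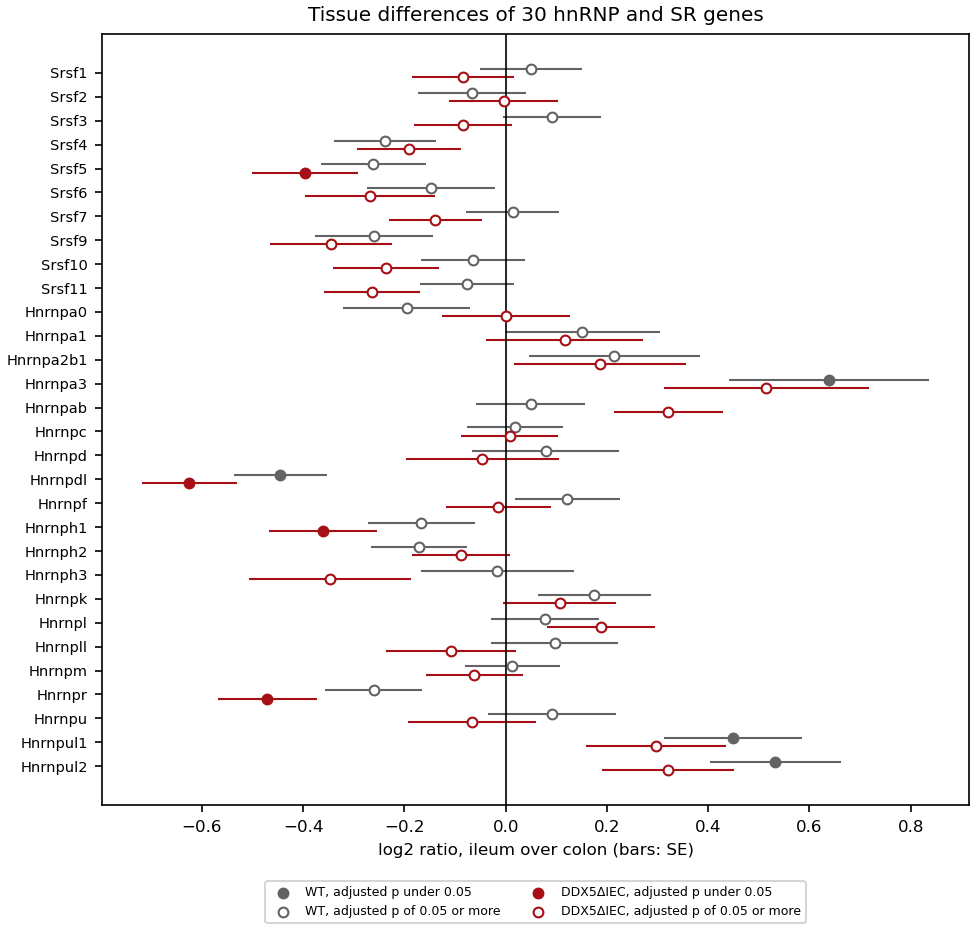
Log2 ratio of ileum over colon for each tested member in WT and in DDX5ΔIEC mice, with bars of 1 SE and filled points for an adjusted p under 0.05. Hnrnpdl is filled in both genotypes, at −0.45 in WT and −0.63 in DDX5ΔIEC.

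**Figure D5:**
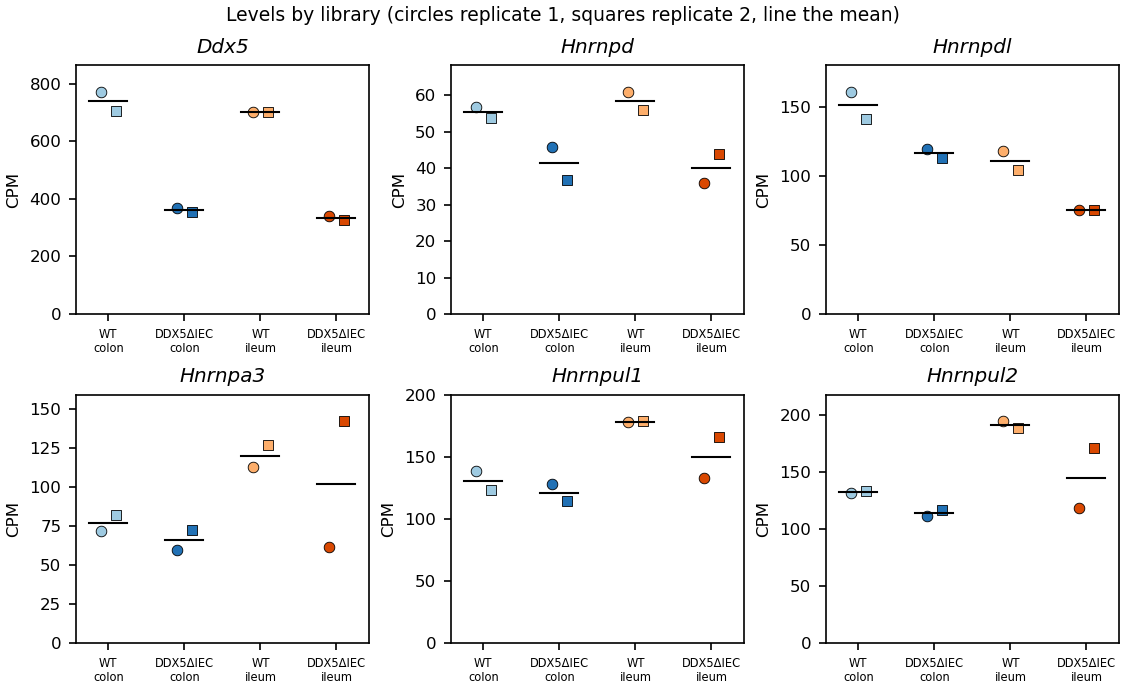
Level in each library, in CPM, of Ddx5 and of 5 members, with circles for replicate 1, squares for replicate 2 and a line at the mean of each group. DDX5ΔIEC libraries of Hnrnpd and Hnrnpdl lie below WT in both tissues, and the DDX5ΔIEC ileum libraries of Hnrnpa3 stand at 61.7 CPM and 142.5 CPM.

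Genes that work beside the members were followed by lists. The 16 tested hnRNPs that bear other names had a median log2 fold change of −0.01 in DDX5ΔIEC colon and −0.08 in DDX5ΔIEC ileum, with 0 passing in either by edgeR or DESeq2 and 0 and 3 at an unadjusted p under 0.05. The 22 SR-related proteins and SR protein kinases, the 34 genes of the core spliceosome and the 10 genes of nonsense-mediated decay had 0 passing by genotype in both tissues by edgeR and DESeq2. At an unadjusted p under 0.05 they counted 0, 1 and 1 in the colon and 2, 1 and 0 in the ileum. Their medians were −0.13, 0.04 and −0.18 in the ileum. Of 20 other regulators of alternative splicing, 0 passed in the colon by edgeR or DESeq2, with 2 at an unadjusted p under 0.05. In the ileum 2 of 20 passed by edgeR, against 0.697% of all genes, the cold-induced RNA-binding genes Cirbp and Rbm3, both lower. DESeq2 called 1 of 20 there, against 0.275% of genes, and 4 were lower at an unadjusted p under 0.05, against 12.3%. Cirbp was at 25.9 and 16.8 CPM in WT ileum and 10.4 and 10.4 CPM in DDX5ΔIEC ileum, and Rbm3 at 142 and 98.7 CPM and 85.3 and 47.3 CPM. In the colon, where neither passed, Cirbp was at 33.1 and 21.5 CPM in WT and 21.7 and 13.6 CPM in DDX5ΔIEC. Rbm3 stood there at 120 and 101 CPM and 93.4 and 54.0 CPM. The ileum log2 fold changes of Cirbp and Rbm3 were −1.02 (SE 0.190, adjusted p = 0.0426) and −0.89 (SE 0.146, adjusted p = 0.0270). With 1 library left out that of Cirbp ran from −1.31 to −0.69. That of Rbm3 was −0.48 without replicate 2 and −1.35 without replicate 1 of DDX5ΔIEC ileum, and −0.57 without replicate 1 of WT ileum. Both calls ended without the replicate block (adjusted p = 0.456 and 0.560), with a crossed block, in 1 fit of all 8 libraries and without the 3 repeat-like genes (adjusted p = 0.0920 and 0.0579). That of Cirbp also ended by DESeq2 (adjusted p = 0.332) and with a mean of at least 10 counts (adjusted p = 0.0645). Over the alternatives with all libraries adjusted p ranged from 1.46e-05 to 0.456 for Cirbp and from 4.83e-05 to 0.760 for Rbm3. For the interaction the 5 lists had 0 genes passing by edgeR and by DESeq2. At an unadjusted p under 0.05 they had at most 1 per list, against 6.37% of all genes.

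The partner lists were also compared by tissue, where 19.5% of all genes were higher and 18.3% lower in WT ileum by edgeR. Of the hnRNPs under other names, 6 of 16 rose and 0 fell from colon to ileum in WT mice, led by Pcbp2, a relative of Hnrnpk, which was at 76.5 and 82.0 CPM in WT colon and 153 and 158 CPM in WT ileum, a log2 ratio of 0.97 (SE 0.132, adjusted p = 0.00148). SR-related genes and kinases counted 1 higher and 3 lower of 22, the core spliceosome 3 and 2 of 34 and nonsense-mediated decay 3 and 2 of 10. The call of Clk2, among the 3 lower SR-related genes and kinases, ended in part of the alternatives with all libraries (adjusted p from 0.0322 to 0.251 by edgeR or DESeq2). Among the other regulators 3 rose and 3 fell of 20. DESeq2 called 6 higher and 0 lower of the hnRNPs under other names, 1 and 0 of the SR-related genes, 2 and 1 of the core spliceosome, 2 and 0 of the decay genes and 2 and 3 of the other regulators, where 13.7% of all genes were higher and 11% lower. The other regulators include Esrp1 and Esrp2, which drive epithelial splicing patterns, at log2 ratios of −0.65 (SE 0.104, adjusted p = 0.00309) and −0.63 (SE 0.107, adjusted p = 0.00391), and Rbm47, at 0.65 (SE 0.112, adjusted p = 0.00418). These 3 calls ended with any 1 of the 4 WT libraries left out, replicates 1 and 2 of colon and ileum, with adjusted p up to 0.103 for Esrp1, 0.0988 for Esrp2 and 0.161 for Rbm47. In DDX5ΔIEC mice, where 19.4% of all genes were higher and 18.3% lower, the higher and lower counts by edgeR were 7 and 1 for hnRNPs under other names, 3 and 7 for SR-related genes and kinases, 5 and 1 for the core spliceosome, 1 and 4 for nonsense-mediated decay and 3 and 6 for the other regulators. By DESeq2 they were, in the same order, 6 and 0, 0 and 4, 1 and 1, 1 and 2, and 1 and 5, where 13.9% of all genes were higher and 10.1% lower.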

How the data were processed

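RNAseq libraries were made from IECs of 2 WT and 2 DDX5ΔIEC mice, colon and ileum each. The raw counts deposited for each library are the authors' own. They come from paired reads placed on mm10 by STAR 2.6.1a, with featureCounts run on the exons of GENCODE vM19 genes. Only reads with a unique place in the genome were counted. Reads shared by a gene and a near-identical copy, such as a processed pseudogene of Hnrnpa1, are lost by this rule. The deposited tables also hold the authors' normalized signal, and the DESeq2 1.18.1 comparison of the genotypes as a mean, a log2 fold change, its SE, a statistic score, a p-value and an adjusted p-value. None of these columns was used. A gene in 1 table only was counted as 0 in the other.

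With R 4.3.3 and edgeR 4.0.16, genes were kept by filterByExpr at a minimum count of 10, scaled by TMM and tested with the quasi-likelihood test and Benjamini-Hochberg adjustment over all genes. Genotypes were compared within a tissue with the replicate number as a block. The study's methods name a covariate for harvest, and whether the number marks a harvest is not given. Tissues and the interaction were tested over 8 libraries with the mouse as a block. Supplementary material of the study ties colon and ileum libraries of 1 genotype and number to 1 mouse, and their deviations from the group means correlated at 0.140 in WT and 0.142 in DDX5ΔIEC over 16178 genes. Standard errors are the log2 fold change divided by the root of the F statistic. Printed CPM come from the scaling over 8 libraries, and fold changes within a tissue from that tissue's fit. Alternatives were DESeq2 1.42.0, RLE, other filters, no block, a crossed block, 1 fit of all libraries, no repeat-like genes and each library left out.

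Members and lists were chosen with earlier results of these data known. Named genes are Ddx5, Ddx17, members past an adjusted p of 0.05 or the study's criterion by genotype, members past an adjusted p of 0.05 by tissue in WT, the 5 members of each family with the highest level per length, up to 3 genes per list and comparison, and for marker lists the leading gene and genes at 0 in a library. Annotation is that of GENCODE vM21, where 28 members have the same gene version as in the tables, and Hnrnpm, Hnrnpul2 and Srsf7 are given without positions. The length column equals the union of exons for all 28.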

Additional observations from a re-analysis of the deposited data

How the results depend on the processing

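Over every alternative and every library left out, 0 members were called by genotype in either tissue or for the interaction. The replicate block by itself changed none of these counts, and with no replicate block the medians of the members were −0.06 in the colon and −0.15 in the ileum. Libraries of WT and DDX5ΔIEC with the same number correlated at −0.000406 in the colon and 0.125 in the ileum in their deviations from the group means. The study describes pairs of littermates kept in 1 cage and a covariate for harvest, but neither it nor the labels tie a number to a pair, so the number is not shown to mark one. Over the other alternatives the median ran from −0.07 to −0.05 in the colon and from −0.21 to −0.15 in the ileum, and with 1 library left out from −0.15 to −0.0219 and from −0.20 to −0.04. Members at the study's criterion numbered 0 to 1 in the colon and 1 to 4 in the ileum with 1 library left out. In the ileum the alternative without a filter on low counts gave 3, adding Hnrnpll. Members called by tissue ranged from 0 to 6 in WT and from 2 to 8 in DDX5ΔIEC with 1 library left out, and from 3 to 4 and from 4 to 6 over the other alternatives. A crossed block gave 0 calls by genotype too. The cause of these shifts was not tested.

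For the fits with a library left out, 1 group keeps a single library, which is assumed to vary like the others. Genotype fits of this kind held the remaining libraries of both tissues with no block, while the main genotype fits held 1 tissue with a block. A shift in them therefore mixes the missing library with the change of model. In the tissue and interaction fits, leaving out either tissue of a mouse takes that mouse out of the comparison, so the 2 fits are not separate checks. Libraries held 11571061 to 22984283 counts, and Srsf12, at 0 to 4 counts, could not be compared at this depth.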

Other observations

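Both tables also list Hnrnpa1l2-ps and Hnrnpa1l2-ps2, processed pseudogenes that the choice of protein-coding genes left out. Their highest counts in any library were 2 and 3.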
